A study of Ovis aries with 15 samples.

Results

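The genes described here are those of the vesicle fusion machinery: SNAREs, the UNC13 priming factors, the syntaxin binding proteins, the synaptotagmins and synaptotagmin-like proteins, and the factors that take SNARE complexes apart. They were taken by gene symbol, as the STX, STXBP, VAMP, SNAP23, SNAP25, SNAP29, SNAP47, UNC13, SYT, SYTL, GOSR, BET1, VTI1, YKT6, NAP and NSF symbols of the annotation, which gave 70 of 24691 features. This set was picked with earlier results of these data known. RNA from needle biopsies of the mammary gland of 2-year-old primiparous Romney ewes was sequenced as 9 late pregnancy libraries (day 135 of gestation) and 6 lactation libraries (day 15 post partum), each from a pool of ewes. Each state holds ewes whose own dams were fed ad libitum (HM), at maintenance (MM) or below maintenance (LM) from day 21 to day 50 of gestation, with 3 late pregnancy and 2 lactation pools per feed. All of these dams were at maintenance from then to day 140, and the ewes themselves were kept and fed alike. The labels say that ewes were biopsied in both states but not which ewes make up a pool, so p-values measure the spread between pools, and the sources differ on whether a lactation pool holds 2 or 3 ewes.

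A vesicle fuses with its target membrane when an R-SNARE on the vesicle (a VAMP or YKT6) zips together with Qa, Qb and Qc SNAREs on the target (a syntaxin with a SNAP25 family protein, or with separate Qb and Qc proteins inside the cell). UNC13 proteins open syntaxin and prime vesicles, the STXBP proteins of the Munc18 type hold and guide syntaxins, synaptotagmins sense calcium, and synaptotagmin-like proteins tie RAB27 vesicles to the plasma membrane. NSF and its adaptors then pull the spent complexes apart for reuse. In the alveolar cells of the lactating gland this machinery releases casein, lactose and whey proteins from secretory vesicles, while fat globules bud off by another route.

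Each late pregnancy library held between 6471237 and 16898986 exon reads and each lactation library between 9014506 and 24001031. The 7 main milk protein genes took 13.7% to 23.4% of them in late pregnancy and 71.3% to 75.8% in lactation. Levels are therefore given as CPM (counts per 1e6 reads) on library sizes scaled by the trimmed mean of M values (TMM), which leaves those genes out of account, and changes are log2 of lactation over late pregnancy with the standard error (SE). A gene was called at an adjusted p under 0.05 in the quasi-likelihood test of edgeR over 13345 genes. One lactation library, HML pool 1, stood apart: 13.2% of its gene reads lay outside exons, against 5.85% to 6.68% in the other lactation libraries and 14.4% to 16.1% in late pregnancy. Without it 24 members were called higher and 14 lower, and the members whose call it decides are named below.

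Of the 70 members, 52 had enough exon reads to be tested and 18 did not. In lactation 24 members were higher and 17 lower, and 11 were not called. Among all genes tested 33.1% were called higher and 35.2% lower, so the share of members called lower (32.7%) was near that of all genes and the share called higher was 46.2%. No late pregnancy library overlapped a lactation library for 25 of the tested members (48.1%), as for 40.2% of all genes tested. A change of more than 2-fold was called higher in 8 members and lower in 2, against 9.13% and 13.0% of all genes. The median log2 change was 0.10 over the tested members and -0.03 over all genes tested. Some members, UNC13A among them, reached the minimum of reads only through the state in which they were high, so these shares describe the tested members and not all 70. Directions are relative to the TMM scaling: on library totals alone the median of all genes fell to -1.94, and 2 members (UNC13A and VAMP1) were called higher and 47 lower, while 27 members lay above the median of all genes on either scale.

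**Figure D1:**
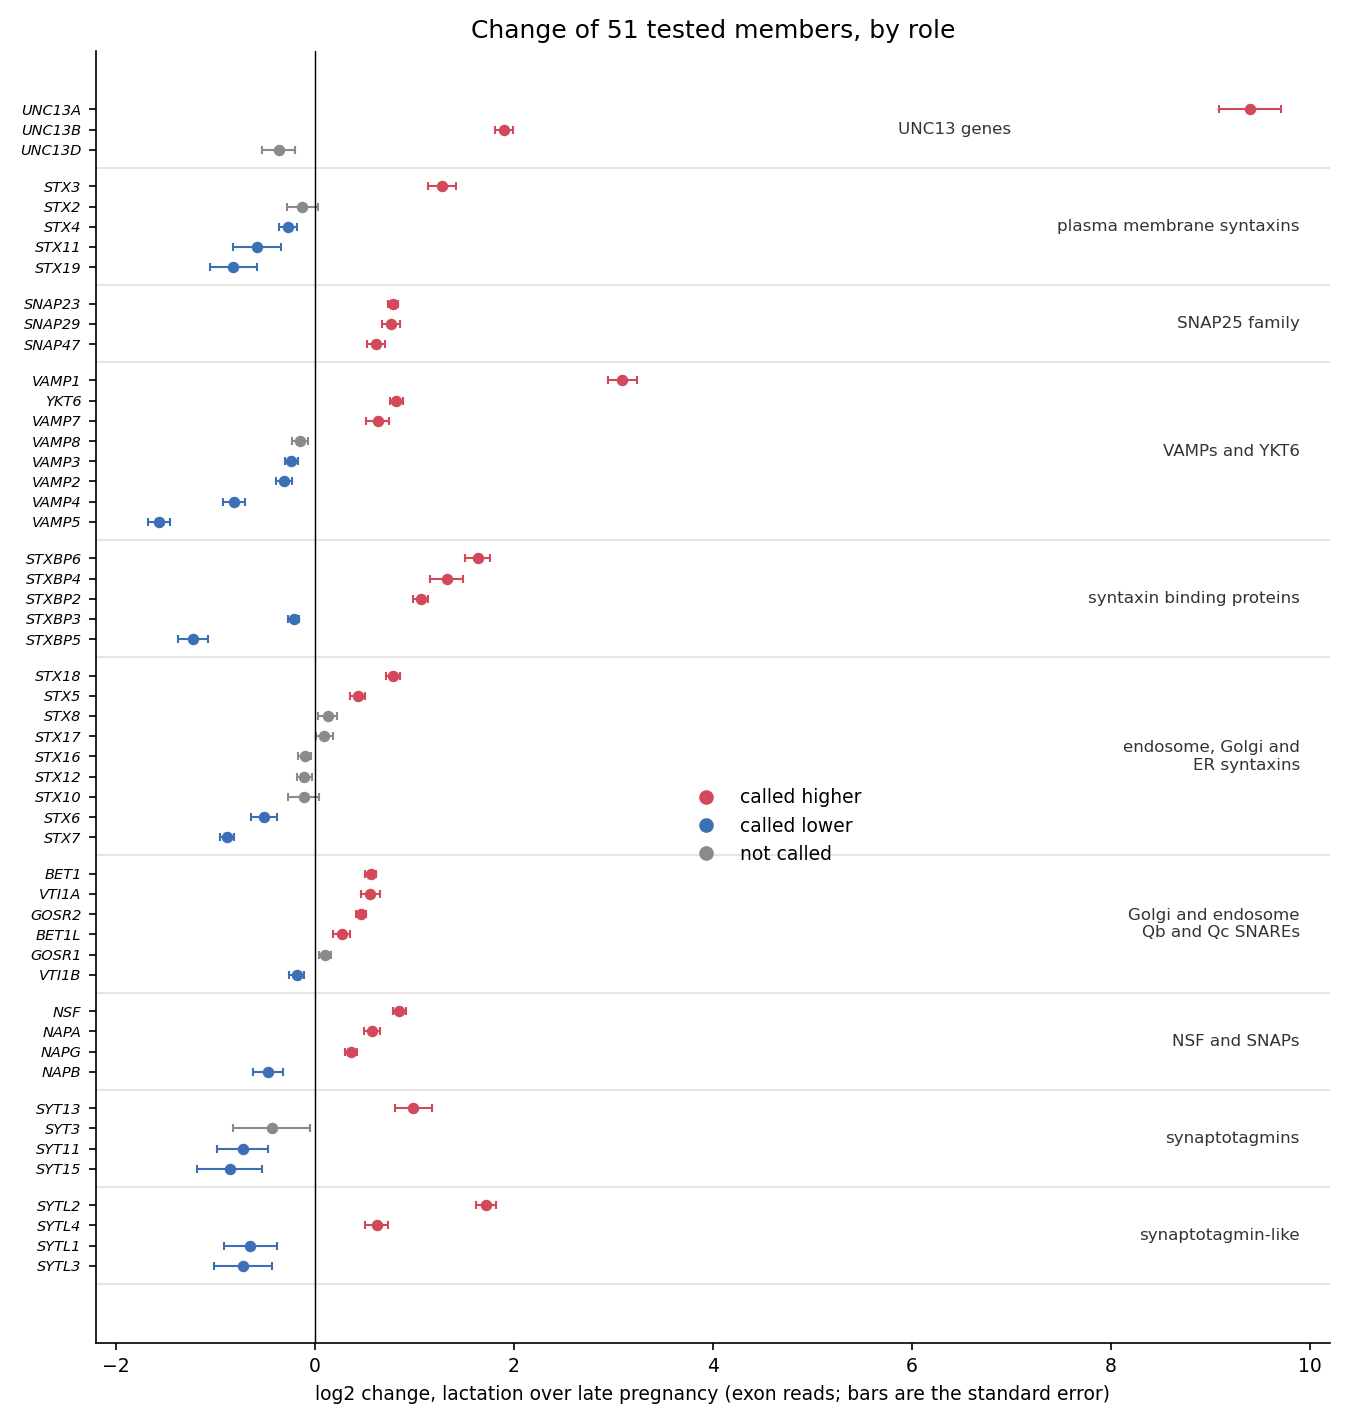
Log2 change in exon reads, lactation over late pregnancy on the TMM scale, of 51 of the 52 tested members grouped by role, with standard errors (n = 9 and 6 libraries). UNC13A stands at 9.40, VAMP1 at 3.09 and VAMP5 at -1.57, and on library totals alone every point would lie lower, with UNC13A and VAMP1 alone still called higher.

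The largest rise was that of UNC13A, the priming factor best known from nerve terminals. Its exon reads numbered 0 to 2 per library in late pregnancy, with 4 reads in all, and 85 to 185 in lactation, with 815 in all. In CPM the lowest, median and highest late pregnancy libraries held 0, 0 and 0.099, and the lactation libraries 12.2, 19.2 and 27.1. Every lactation library thus lay above every late pregnancy library, and 3 of the 9 late pregnancy libraries held any exon read. The fitted log2 change of 9.40 ± 0.31 (adjusted p = 1.75e-15) was the highest of the 13345 genes tested, and since late pregnancy lay at the floor the level was at least 126-fold higher in lactation, counted against 3 reads per library. That rank was known when these genes were picked for description, so it is given as a value. The gene lies on chromosome 5 at 5178493-5254985 with 46 annotated exons (coordinates of the deposited table, whose labels name build Oar_v3.1 while the methods name a later version). In lactation 78.5% of its exon reads crossed exon junctions, from 69.4% to 84.3% in single libraries, and reads between the exons rose too (log2 change 7.45 ± 0.33, adjusted p = 3.1e-15). The tested genes within 100 kb did not follow it as a block: MAP1S, the nearest, fell by 0.71, FCHO1 by 1.24, SLC27A1 by 1.03 and PGLS by 0.29 on the log2 scale, B3GNT3 fell by 2.38, FAM129C rose by 1.86 and GLT25D1 was not called (0.17, adjusted p = 0.17).

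UNC13B, the more widely expressed priming factor, was the most abundant UNC13 gene per length in both states. Its late pregnancy libraries held 35.9, 41.1 and 59.2 CPM (lowest, median and highest) and its lactation libraries 141, 158 and 178 CPM. The ranges were far apart, and the rise was 1.90 ± 0.09 on the log2 scale (adjusted p = 3.69e-13). UNC13D, which primes the granules of cytotoxic lymphocytes and other blood cells, held 2.47, 3.11 and 4.06 CPM in late pregnancy against 1.58, 2.36 and 3.24 CPM in lactation. These ranges overlapped and the change was not called (-0.36 ± 0.16, adjusted p = 0.0564), although leaving out LML pool 1, LML pool 2, MMLP pool 1 or MMLP pool 2 gave adjusted p from 0.0316 to 0.0431, and it was called lower with upper quartile scaling and with a filter of 1 read in any library or 10 reads in every library. UNC13C had 46 exon reads in the 9 late pregnancy libraries and 1 in the 6 lactation libraries, too few to test and too few for a fold. Per kilobase of exon, the summed UNC13 level was 7.60 ± 1.21 CPM in late pregnancy and 29.1 ± 2.96 CPM in lactation (SD). UNC13B made up 86.6% ± 1.78 of it in late pregnancy and 85.0% ± 2.80 in lactation, UNC13A went from 0.0503% ± 0.0907 to 12.3% ± 2.50, and UNC13D from 13.0% ± 1.72 to 2.63% ± 0.582.

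**Figure D2:**
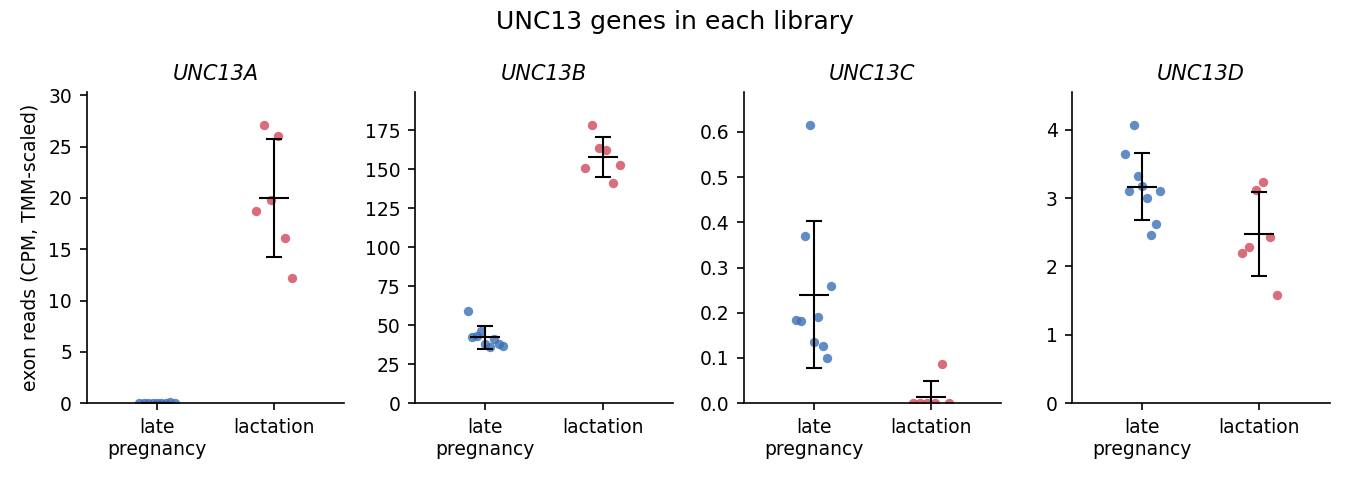
Level of the 4 UNC13 genes in each library in CPM, with the mean and SD as bars, for 9 late pregnancy and 6 lactation libraries, each panel on its own linear axis from 0. UNC13A rises from at most 0.099 CPM to at least 12.2 CPM and UNC13B from at most 59.2 to at least 141 CPM, whereas the UNC13D points of the states overlap.

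Among the 7 plasma membrane syntaxins, the Qa-SNAREs on which UNC13 acts, 1 was called higher, 3 were called lower, 1 was not called and 2 could not be tested. STX3, the syntaxin of the apical membrane of epithelia, held 2.53, 3.38 and 3.84 CPM (lowest, median, highest) in late pregnancy and 5.29, 7.63 and 11.2 CPM in lactation. Its states did not overlap and it rose by 1.28 ± 0.14 on the log2 scale (adjusted p = 1.11e-07). STX4, found at basolateral and other plasma membranes, held 11.1, 13.5 and 14.5 CPM against 8.35, 11.0 and 11.9 CPM. Its ranges overlapped and it fell by 0.27 ± 0.09 (adjusted p = 0.0126). Per kilobase of exon STX4 stood well above STX3 in late pregnancy, at 8.20 ± 0.845 against 2.56 ± 0.354 CPM (SD), whereas in lactation they stood at 6.73 ± 0.810 and 6.26 ± 1.58 CPM, a gap smaller than the spread between libraries.

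The other plasma membrane syntaxins were scarce. STX19, a syntaxin of epithelia without a membrane anchor, held 2.48, 3.58 and 4.66 CPM against 0.957, 2.01 and 3.95 CPM, with overlapping ranges and a fall of 0.82 ± 0.24 (adjusted p = 0.00472). Only 38.4% of its reads were uniquely placed, and on uniquely placed reads it was not called, so its value is uncertain. STX11, best known from immune cells, held 1.33, 1.63 and 2.30 CPM against 0.407, 1.14 and 2.20 CPM. These ranges overlapped as well, and the fall of 0.58 ± 0.24 (adjusted p = 0.0375) was lost, at adjusted p from 0.0507 to 0.118, without any of HMLP pool 1, LML pool 1, LML pool 2, LMLP pool 2, MML pool 1, MML pool 2 or MMLP pool 3. STX2 was not called (-0.13 ± 0.16, adjusted p = 0.483). STX1A, a syntaxin of nerve and endocrine cells, is named here after its values were seen. It had 24 exon reads in late pregnancy and 53 in lactation, 0.141 ± 0.109 and 1.24 ± 0.513 CPM, with no overlap of the libraries. It did not pass the read filter, so no fold is given for it, as for UNC13C and SNAP25.

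The 3 tested members of the SNAP25 family, which pair with these syntaxins, all rose on the TMM scale and lay above the median of all genes on library totals, where each was called lower. SNAP23, the form used outside the nervous system and known from milk-secreting cells, held 92.4, 103 and 112 CPM in late pregnancy and 156, 179 and 187 CPM in lactation. Its ranges did not overlap (rise of 0.78 ± 0.05, adjusted p = 5.02e-11). Its mean per length in lactation, 81.8 ± 5.09 CPM per kilobase, was the second highest among members. VAMP8 was next at 80.7 ± 8.60 CPM per kilobase, a gap smaller than the spread between libraries. SNAP29, which also serves autophagosomes, held 5.95, 6.96 and 7.61 CPM against 9.14, 12.0 and 13.0 CPM. SNAP47, a SNARE without a membrane anchor, held 4.75, 5.43 and 6.09 CPM against 7.55, 8.18 and 9.85 CPM. Neither overlapped between the states, and the rises were 0.76 ± 0.09 (adjusted p = 3.01e-07) and 0.61 ± 0.09 (adjusted p = 4.65e-06). SNAP25 itself, the form of neurons, had 39 exon reads in late pregnancy and 2 in lactation and was not tested.

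Of the 7 syntaxin binding proteins, 3 rose by more than 2-fold and 1 fell by more than 2-fold. STXBP2 (Munc18-2), the partner of STX3 and STX11, held 16.3, 19.2 and 22.1 CPM in late pregnancy and 36.9, 38.0 and 44.6 CPM in lactation. It did not overlap between the states and rose by 1.06 ± 0.07 on the log2 scale (adjusted p = 1.01e-10). STXBP3 (Munc18-3), the partner of STX4, held 45.9, 53.5 and 57.7 CPM against 41.7, 46.7 and 47.6 CPM, with overlap and a fall of 0.22 ± 0.06 (adjusted p = 0.00189). Per kilobase of exon their order differed between the states: STXBP3 stood at 24.5 ± 1.70 and STXBP2 at 11.3 ± 1.22 CPM in late pregnancy, against 21.2 ± 1.00 and 23.5 ± 1.87 CPM in lactation, where the gap was close to the spread between libraries.

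Other syntaxin binding proteins, outside the Munc18 type, were scarcer. STXBP6 (amisyn), which binds syntaxins through a SNARE-like segment, held 1.79, 2.17 and 2.46 CPM against 5.22, 6.87 and 7.87 CPM. STXBP4 (Synip), a binder of STX4, held 1.45, 2.91 and 3.46 CPM against 5.27, 6.94 and 8.34 CPM. Both rose in all lactation libraries beyond the late pregnancy range, by 1.64 ± 0.13 (adjusted p = 5.67e-10) and 1.32 ± 0.16 (adjusted p = 6.09e-07). STXBP5 (tomosyn), which blocks SNARE assembly by taking the place of a VAMP, moved the other way, with 3.76, 4.53 and 5.88 CPM against 1.63, 1.91 and 2.42 CPM. Its ranges did not overlap and it fell by 1.23 ± 0.15 (adjusted p = 4.04e-07).

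**Figure D3:**
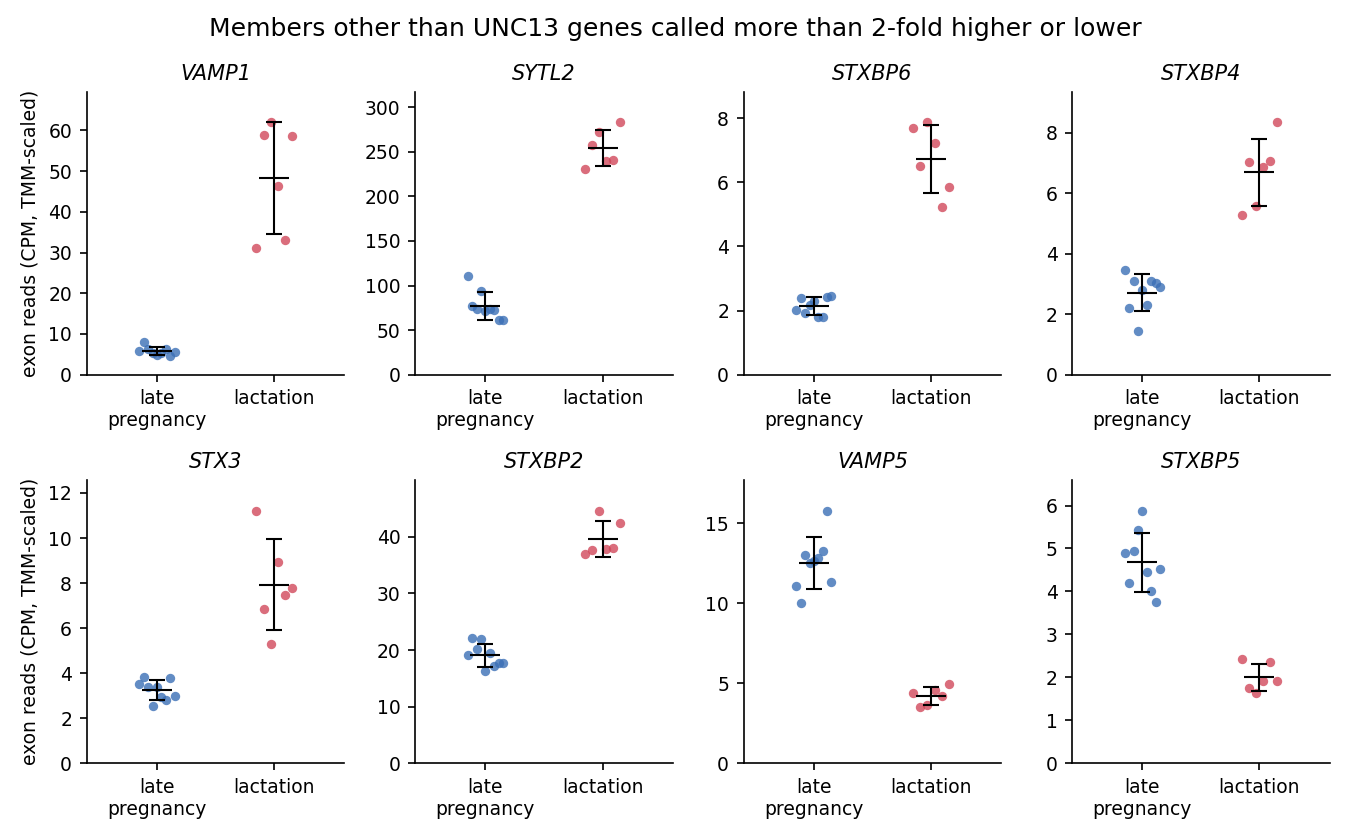
Level in each library of the members other than UNC13 genes that were called with a change of more than 2-fold on the TMM scale, in CPM with the mean and SD as bars (9 late pregnancy and 6 lactation libraries, linear axes from 0). The 8 panels were picked by their change in these same libraries, so that their states do not overlap is no separate result. VAMP5 and STXBP5 are the members that are lower in lactation.

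The R-SNAREs were split, with 3 of 8 higher, 4 lower and 1 not called. VAMP1, a vesicle SNARE described mostly in neurons and muscle, held 4.65, 5.56 and 7.95 CPM in late pregnancy and 31.2, 52.5 and 62.0 CPM in lactation. Its lowest lactation library was well above its highest late pregnancy library, and the rise of 3.09 ± 0.15 (adjusted p = 3.48e-13) was the second largest among members. VAMP1 lies on chromosome 3 at 207864618-207871626 and overlaps TAPBPL by 62 bases, where reads of the 2 genes cannot be told apart, and TAPBPL itself fell by 0.20 (adjusted p = 0.00522). YKT6, a lipid-anchored R-SNARE of the route from ER to Golgi, held 62.5, 69.8 and 79.6 CPM against 105, 126 and 135 CPM, and VAMP7, of late endosomes and lysosomes, held 3.91, 5.43 and 6.78 against 6.86, 8.33 and 9.33 CPM. Neither overlapped, with rises of 0.82 ± 0.06 (adjusted p = 7.63e-10) and 0.63 ± 0.12 (adjusted p = 8.93e-05).

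VAMP8, the endosomal R-SNARE known from exocrine granules, held 52.3, 62.1 and 73.1 CPM in late pregnancy and 48.0, 54.0 and 63.5 CPM in lactation. The ranges overlapped and the change was not called (-0.15 ± 0.08, adjusted p = 0.104). That depended on the settings: VAMP8 was called lower without LML pool 1 (adjusted p = 0.0445), with upper quartile scaling, with a filter of 1 read in any library or 10 reads in every library, and with limma. VAMP5, whose gene lies 2.04 kb from that of VAMP8 on chromosome 3 and which is known from muscle and endothelium, held 10.1, 12.6 and 15.8 CPM against 3.52, 4.29 and 4.96 CPM. It did not overlap and fell by 1.57 ± 0.11 (adjusted p = 2.62e-10), the largest fall among members. VAMP4, of the trans-Golgi network, fell by 0.81 ± 0.11 (adjusted p = 2.78e-06) without overlap, and VAMP2 and VAMP3, of regulated secretion and recycling endosomes, fell by 0.31 ± 0.08 (adjusted p = 0.00233) and 0.24 ± 0.06 (adjusted p = 0.00196) with overlapping ranges. Per kilobase of exon VAMP8 and YKT6 were the most abundant of all 70 members in late pregnancy, at 89.2 ± 10.1 and 78.4 ± 6.02 CPM. In lactation YKT6 led at 138 ± 13.6 CPM, with VAMP8 at 80.7 ± 8.60. YKT6 made up 31.6% ± 1.30 of the summed R-SNARE level in late pregnancy and 46.2% ± 2.12 in lactation, VAMP8 went from 35.9% ± 1.69 to 27.0% ± 1.97, and VAMP1 from 0.900% ± 0.181 to 6.14% ± 1.50.

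**Figure D4:**
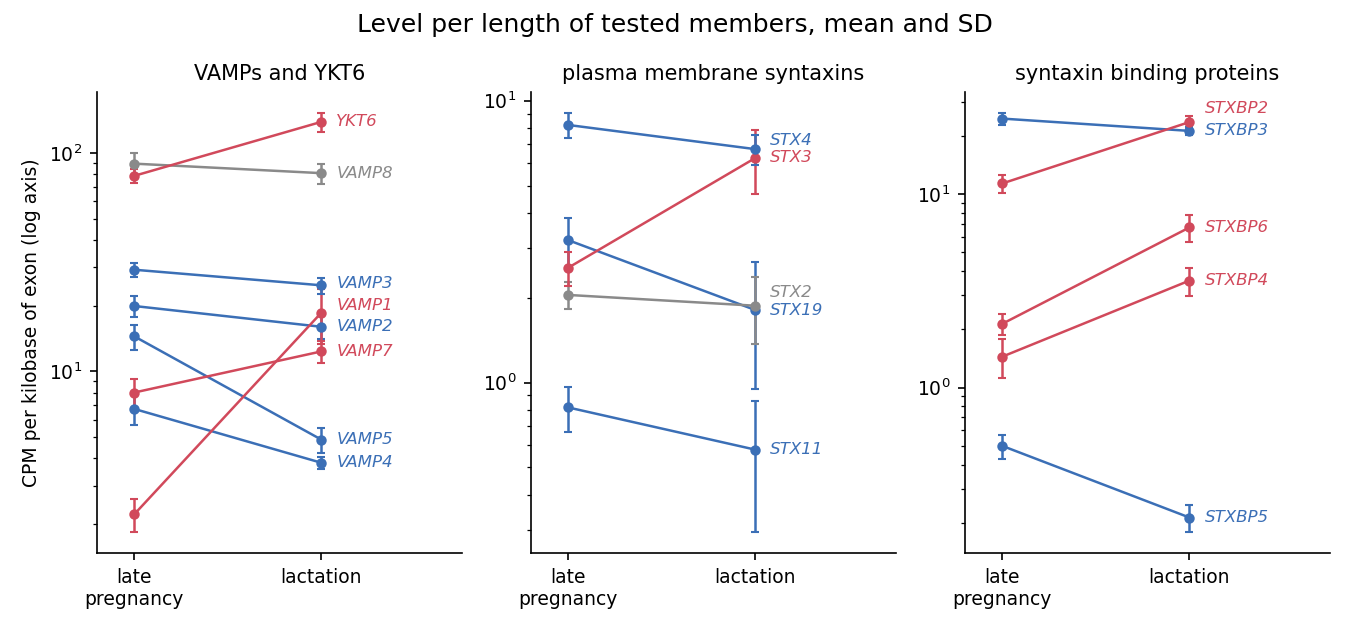
Mean level per kilobase of exon (CPM per kilobase, log axis, SD as bars) of tested R-SNAREs, plasma membrane syntaxins and syntaxin binding proteins in late pregnancy and lactation. Red lines were called higher, blue lower and grey not called on the TMM scale, and VAMP1 goes from 2.22 to 18.5. In lactation the mean of STX3 comes near that of STX4, and STXBP2 lies slightly above STXBP3.

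Of the 9 syntaxins of endosomes, Golgi and ER, 2 were higher, 2 lower and 5 not called, with a median log2 change of -0.10. STX18, of retrograde transport to the ER, held 11.5, 13.0 and 13.5 CPM in late pregnancy and 17.6, 22.2 and 25.4 CPM in lactation. The states did not overlap and it rose by 0.79 ± 0.07 (adjusted p = 6.38e-09). STX5, the Qa-SNARE of the ER to Golgi route, rose by 0.43 ± 0.07 (adjusted p = 3.41e-05) with overlapping ranges. STX7, of late endosomes, held 25.3, 29.1 and 31.1 CPM against 12.8, 16.0 and 16.8 CPM, without overlap, and fell by 0.88 ± 0.07 (adjusted p = 8.6e-10). STX6, of the trans-Golgi network, held 8.32, 12.0 and 14.4 CPM against 7.04, 7.79 and 11.4 CPM, with overlap, and fell by 0.51 ± 0.13 (adjusted p = 0.00226). STX12, an endosomal syntaxin known from secretory cells, held 29.4, 31.4 and 37.1 CPM against 24.0, 30.1 and 36.2 CPM and was not called (-0.11 ± 0.08, adjusted p = 0.227). STX8, STX10, STX16 and STX17 lay between -0.11 and 0.13 and were not called either. STX12 and STX16 were called lower with upper quartile scaling, with at least 10 reads in every library and with limma, and STX16 also without HML pool 2 (adjusted p = 0.0189).

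The Qb and Qc SNAREs of Golgi and endosomes moved little, with 4 of 6 called higher, 1 lower and none past 2-fold. BET1 and GOSR2, both of ER to Golgi complexes with STX5, rose by 0.56 ± 0.06 (adjusted p = 2.95e-08) and 0.46 ± 0.05 (adjusted p = 4.16e-08). BET1 held 35.1, 39.9 and 43.4 CPM against 53.4, 57.9 and 65.4 CPM, and GOSR2 held 47.0, 51.4 and 55.2 CPM against 66.6, 70.8 and 76.2 CPM. Neither overlapped, nor did VTI1A of the trans-Golgi network, with 5.12, 6.73 and 7.61 CPM against 8.23, 10.0 and 11.0 CPM and a rise of 0.56 ± 0.10 (adjusted p = 3.99e-05). BET1L rose by 0.27 ± 0.08 (adjusted p = 0.00818) with overlap, a call lost with upper quartile scaling, with at least 10 reads in every library and with limma. GOSR1 was not called (0.10 ± 0.06, adjusted p = 0.135). VTI1B, of late endosomes, was the most abundant of the 6 per length and held 59.7, 71.7 and 78.7 CPM against 51.9, 62.3 and 69.1 CPM. Its ranges overlapped, and its fall of 0.19 ± 0.07 (adjusted p = 0.0313) was lost, at adjusted p from 0.0511 to 0.0933, without any of HML pool 1, HMLP pool 1, HMLP pool 3, LML pool 1, LML pool 2, LMLP pool 1 or MMLP pool 1. It also overlaps ARG2 by 419 bases, and ARG2 rose by 1.99 (adjusted p = 1.51e-13).

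The disassembly factors rose in 3 of 4 cases on the TMM scale, and those 3 lay above the median of all genes on library totals, where all 4 were called lower. NSF, the ATPase, held 19.7, 23.3 and 26.6 CPM in late pregnancy and 38.0, 40.9 and 46.3 CPM in lactation. NAPA (alpha-SNAP), its main adaptor, held 18.0, 19.6 and 25.0 CPM against 26.8, 29.2 and 37.7 CPM. Neither overlapped, and the rises were 0.85 ± 0.06 (adjusted p = 5.15e-10) and 0.57 ± 0.08 (adjusted p = 1.89e-06), beside 0.36 ± 0.06 (adjusted p = 1.74e-05) for NAPG (gamma-SNAP). NAPB, the neuronal form, held 10.0, 12.0 and 17.2 CPM against 7.03, 8.49 and 12.9 CPM, overlapped, and fell by 0.47 ± 0.15 (adjusted p = 0.00965).

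Synaptotagmins were nearly absent from the exon reads of this tissue, and 12 of 16 had too few of them to test. The summed level of all 16 was 2.04 ± 0.253 CPM per kilobase in late pregnancy and 1.90 ± 0.449 in lactation. SYT13, a form that does not bind calcium, held 1.16, 1.38 and 2.13 CPM against 2.09, 2.78 and 4.34 CPM. Its ranges met narrowly and it rose by 0.99 ± 0.19 (adjusted p = 0.000104). SYT11, likewise without calcium binding, held 0.914, 1.25 and 2.28 CPM against 0.571, 0.930 and 1.10 CPM, and SYT15 held 0.532, 0.709 and 0.914 against 0.113, 0.394 and 0.879 CPM. Both overlapped between states, with falls of 0.73 ± 0.26 (adjusted p = 0.0174) and 0.86 ± 0.33 (adjusted p = 0.0264). The SYT15 call, on 1 to 5 reads per lactation library, was lost at adjusted p from 0.0627 to 0.116 without LML pool 1, MML pool 1 or MML pool 2. SYT3 was not called (-0.43 ± 0.39, adjusted p = 0.325). The calcium sensors of neurons and endocrine cells, SYT1, SYT2, SYT7 and SYT9, had 31 to 42 exon reads each over the late pregnancy libraries and 4 to 7 over the lactation libraries. A feature without a symbol of its own in the table carries the gene identifier of SYT5, and held 1.92 ± 0.546 and 1.80 ± 0.358 CPM without a call (-0.06 ± 0.21, adjusted p = 0.818).

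The synaptotagmin-like proteins were led by SYTL2, which ties RAB27 vesicles to the apical membrane of epithelia. SYTL2, on chromosome 21 at 9181021-9307155, held 61.1, 74.0 and 110 CPM in late pregnancy and 231, 249 and 283 CPM in lactation. Every lactation library exceeded every late pregnancy library, and the rise was 1.72 ± 0.10 (adjusted p = 1.56e-11). SYTL4 (granuphilin), another RAB27 binder, rose by 0.62 ± 0.11 (adjusted p = 7.79e-05) without overlap, from 5.57 ± 0.780 to 8.47 ± 1.21 CPM. SYTL1 and SYTL3, at 2.08 ± 0.382 and 1.78 ± 0.297 CPM in late pregnancy and 1.34 ± 0.868 and 1.10 ± 0.783 in lactation, both overlapped between the states. Their falls of 0.65 ± 0.27 (adjusted p = 0.0394) and 0.73 ± 0.29 (adjusted p = 0.033) depended on single libraries. That of SYTL1 was lost, at adjusted p from 0.0512 to 0.132, without any of HML pool 1, HML pool 2, LML pool 1, LMLP pool 1, LMLP pool 3, MML pool 1, MML pool 2, MMLP pool 1 or MMLP pool 3. That of SYTL3 was lost, at adjusted p from 0.0547 to 0.127, without HML pool 1, HMLP pool 1, LML pool 2, MML pool 1 or MML pool 2. SYTL5 had no exon read in any library.

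Apart from STX1A, SNAP25, UNC13C and SYTL5, the untested members described here were STXBP5L, with 11 exon reads over the 15 libraries, and the 12 synaptotagmins. Of these, SYT6 and SYT14 had no exon read. SYT16 had 0 exon reads in late pregnancy and 6 in lactation. These exon counts allow no statement beyond scarcity at this depth. On reads outside exons, fitted separately in edgeR, SYT14 was called lower (-1.60 ± 0.32, adjusted p = 0.00017). SYT1 was called higher there (0.66 ± 0.27, adjusted p = 0.0406), a call lost without HML pool 1 (adjusted p = 0.226). SYT2 and UNC13C were not called on those reads.

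Reads that fell within a gene but outside its exons gave another readout of the same libraries. Among the 50 members with enough of them, 25 were higher, 10 lower and 15 not called, against 29.0% higher and 29.0% lower of the 10344 genes tested. Of the 46 members tested on both kinds of read, 20 were higher on both and 6 lower on both, and UNC13B and STX4 were called in opposite directions. These joint calls were not counted over all genes, so whether they are particular to the members was not tested. For UNC13B the intron reads held 1050, 1233 and 1372 CPM in late pregnancy and 643, 710 and 762 CPM in lactation. These ranges did not overlap, and intron reads fell by 0.81 ± 0.09 on the log2 scale (adjusted p = 3.9e-08), also without HML pool 1 (0.80), while exon reads rose. Reads outside exons made up between 70.3% and 80.8% of the UNC13B reads of a late pregnancy library, and between 32.1% and 39.6% in lactation. The difference of its exon and intron log2 changes, 2.71, was exceeded by 13 of the 9801 genes tested on both, whose middle 90% lay between -0.87 and 0.81. STX4 showed the reverse on a smaller scale, with exon reads lower (fell by 0.27) and intron reads higher (0.50 ± 0.15, adjusted p = 0.00663). For SYTL2 the 2 kinds of read rose alike (1.72 and 1.82), as they did for VAMP1 (3.09 and 3.05). What the UNC13B intron reads derive from was not tested.

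**Figure D5:**
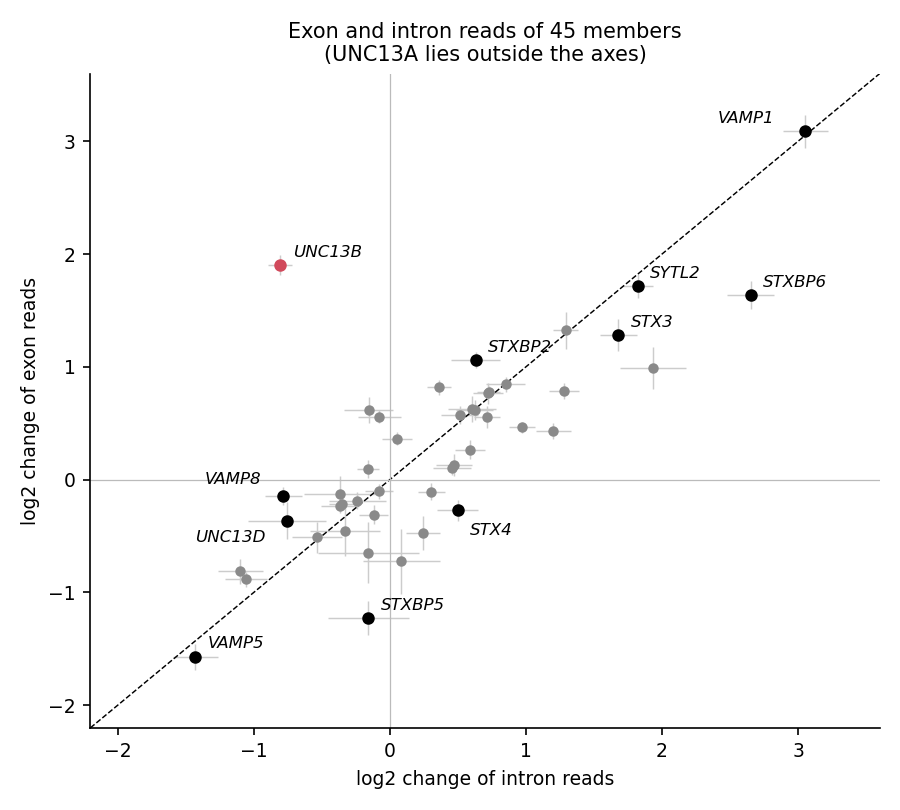
Log2 change of exon reads against that of intron reads, lactation over late pregnancy, for 45 members tested on both, with standard errors as bars and equal change as a dashed line, each kind of read on its own TMM scale. UNC13B (exon 1.90, intron -0.81) lies far above the line, and UNC13A (exon 9.40, intron 7.45) is outside the axes.

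The other genes of the pathway, 87 found of 89 listed, were tested in 67 cases, of which 33 were higher, 15 lower and 19 not called, with a median log2 change of 0.21. Among all genes tested 33.1% were higher and 35.2% lower, with a median of -0.03, and the counts of each list below stand beside these shares. On library totals alone 66 of the 67 were called lower and 0 higher. There 13057 of all 13345 genes were called, and 2.70% of those were higher. The COG and GARP complexes, which tether vesicles at the Golgi, were higher in 10 of 12 cases and lower in none on the TMM scale, by at most 0.93 (VPS53). Among the other SNAREs and Munc18-type proteins 6 of 10 were higher and 1 lower, led by SEC22B (1.01, adjusted p = 6.42e-13), the ER to Golgi R-SNARE, which was matched by gene identifier. The exocyst, which tethers vesicles at the plasma membrane, had 3 of 11 higher and 3 lower. The HOPS and CORVET tethers of lysosomes and endosomes had 2 of 7 higher and 2 lower, and both lists were near the shares of all genes. Of the 9 small GTPases that bind UNC13 or synaptotagmin-like proteins 6 were tested, with 4 higher and 2 lower. RAB27B rose by 1.89 (adjusted p = 8.55e-07) from 0.630 to 2.35 CPM and RAB3D by 1.02 (adjusted p = 2.96e-07) from 3.50 to 7.20 CPM. RAB8A rose by 0.46 (adjusted p = 7.23e-05) and RAB8B by 0.39 (adjusted p = 0.0105). RAB27A fell by 0.45 (adjusted p = 0.00303) and the scarce RAB3B by 1.15 (adjusted p = 0.0436). Of 33 release regulators 17 were too scarce to test, among them the complexins, and 5 were higher and 6 lower, from ESYT1, a lipid transfer protein, at 0.92 (adjusted p = 3.59e-07) to SYNGR3, a synaptic vesicle protein, at -2.50 (adjusted p = 6.66e-08). PICALM, an endocytic adaptor of VAMP2, VAMP3 and VAMP8, fell by 0.70 (adjusted p = 6.14e-10), and of its list of 5 coat and uptake partners 3 rose.

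In bulk tissue, fewer cells of a type and less RNA per cell cannot be told apart, and marker levels of several cell types differed between these states. The summed level of 7 luminal epithelial markers was 1431 to 1751 CPM in late pregnancy and 2301 to 2560 CPM in lactation, with 4 higher, 1 lower and 2 not called. KRT19 and ELF5 made up most of these sums, with means of 622 and 629 CPM in late pregnancy and 947 and 1100 CPM in lactation. The 6 T and NK cell markers found were all lower, summing to 43.0 to 67.1 CPM and 13.0 to 20.5 CPM. Among members that such cells also use, STX7, STX11 and SYTL3 were lower and UNC13D was not called. The STX11 and SYTL3 calls were lost without some single libraries and with limma, whereas that of STX7 held. STXBP2, the partner of STX11, and SNAP23, which such cells use as well, were higher (1.06 and 0.78). The endothelial markers, of which 3 of 4 were lower, summed to 187 to 256 CPM and 132 to 187 CPM, and of 6 fibroblast markers 5 were lower (1311 to 2092 CPM and 618 to 998 CPM), beside the fall of VAMP5. The fibroblast sums came mostly from the collagens COL3A1, COL1A2 and COL1A1. Of 6 myoepithelial markers, from the contractile cells around the alveoli, CNN1 (0.80), KRT14 (0.61) and MYH11 (0.45) were higher, KRT5 (-0.90) was lower and 2 were not called, with sums of 703 to 783 CPM and 650 to 950 CPM, beside the rise of VAMP1. Of 4 macrophage markers C1QB (-1.24), C1QA (-0.98) and CSF1R (-0.45) were lower and 1 was not called, and the sums were 99.9 to 132 CPM and 49.1 to 72.5 CPM. Of 6 neutrophil and mast cell markers 3 were tested: MPO rose by 7.89 on the log2 scale (adjusted p = 9.29e-13), from 0.0379 to 12.9 CPM, KIT fell by 1.18 and CSF3R was not called. The B and plasma cell marker CD79A, 1 of 4 found and the one tested, was lower (-1.27), and of 4 adipocyte markers 2 were tested and neither was called. The part of these cells in the members' changes was not tested. Of 8 nerve, Schwann and neuroendocrine markers none was higher and 1 (S100B) was lower, and the summed levels were 76.6 to 99.3 CPM and 79.0 to 91.5 CPM, nearly all from SOX10. TUBB3 stood at 0.540 CPM in late pregnancy and 0.359 CPM in lactation and was not called. CHGA, SYN1 and NEFL were among those too scarce to test, at 0.190, 0.0741 and 0.0123 CPM in late pregnancy and 0.0650, 0.103 and 0 CPM in lactation.

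Feed of the ewes' dams left no called difference in these genes. Within late pregnancy, the quasi-likelihood test of edgeR called a difference between the 3 dam feeds in 0 of the 51 members tested and in 0% of 13747 genes. At an unadjusted p under 0.05 stood 1 member, NAPB, against 571 of all genes. NAPB averaged 10.3 CPM with MM dams, 11.8 with LM dams and 15.3 with HM dams (adjusted p = 0.772). The change between the states was called different between dam feeds for 0 of 52 members and 0% of 13345 genes, with 2 members (STX8 and STX11) at an unadjusted p under 0.05 against 876 of all genes. DESeq2 also called 0 members in both comparisons, and 20 and 19 genes in all. UNC13A held 12.2 to 27.1 CPM over the 2 lactation pools of each of the 3 feeds, with means of 22.9 for HM, 22.9 for LM and 14.1 for MM, and its interaction was not called (adjusted p = 0.92). With 2 or 3 pools per feed, a p above the threshold does not show that the feeds had the same levels.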

How the data were processed

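Libraries made with the TruSeq RNA v2 kit, which does not mark strand, were sequenced by the authors as 100 bp paired reads over 2 lanes and mapped to the sheep genome in CLC Genomics Workbench. The deposited table gives, for each feature and library, counts of reads on exons, of uniquely placed exon reads, of exon junction reads and of reads on the whole gene, all unnormalized. The deposited RPKM are the authors' exon reads per kilobase of exon, divided by the reads on genes in units of 1e6, and the deposited normalized RPKM are the same after the authors' quantile normalization, as their identical sorted values show. The median coverage of each gene, a signal the authors deposited, and columns of their own comparison (fold changes, test statistics and p-values of the Baggerly test) were not used for any value here.

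Exon reads, or whole-gene reads for the 5583 features that lack an annotated transcript, entered edgeR 4.0.16 (R 4.3.3) with these settings (filterByExpr by state, TMM, quasi-likelihood F-test, Benjamini-Hochberg adjustment over all genes tested, call at adjusted p under 0.05). Intron reads (whole-gene less exon reads), dam feed over the 9 late pregnancy libraries and the interaction of feed and state were fitted the same way. Where no library of a state held more than 3 reads of a gene, that state was taken as at the floor. CPM per kilobase is CPM divided by the deposited exon length. On counts simulated for the comparison of the states (12868 genes), 68.9% of genes changed by 0.5 on the log2 scale were called. Alternatives used DESeq2 1.42.0, limma 3.58.1 on log2(normalized RPKM + 0.1) or (+ 1), other scalings and filters, and fits without each library. Reads carry no molecular identifiers, so precision is judged from the spread between libraries. Of 7615 features named LOC, 4525 matched a RefSeq gene identifier, which supplied SYT5, SEC22B and some markers.

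Members were grouped by role. Named with full values are all UNC13 genes, the 3 largest called changes of each role among members with a mean of at least 1 CPM, the member of each role with the highest RPKM, and SNAP23, VAMP8, STX3, STX4, STX12 and STXBP2. The members, roles and lists were chosen with earlier results of these data known. No sequences are printed, and the values of some genes are not reported here.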

Additional observations from a re-analysis of the deposited data

Results flagged for a closer look

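Over the 37 members named by rule, each state was searched for a library that stood apart from the rest of its state by Dixon's test. Of 74 groups of libraries 7 held one, where chance gives about 1 in 20, and none was HML pool 1. In HMLP pool 1, UNC13B stood at 59.2 CPM against 35.9 to 46.1 in the other late pregnancy libraries, and NAPA at 25.0 CPM against 18.0 to 21.1. In LML pool 2, NAPA stood at 37.7 CPM against 26.8 to 29.8 in the other lactation libraries. In MML pool 1, STXBP3 stood at 41.7 CPM against 45.6 to 47.6. In LMLP pool 1, SYT13 stood at 2.13 CPM against 1.16 to 1.63. The 2 others rest on 1 or 2 reads: UNC13A in MMLP pool 2 (0.099 CPM, 2 reads) and UNC13C in MML pool 1 (0.087 CPM, 1 read). Without these libraries the calls of UNC13A, UNC13B, NAPA, STXBP3 and SYT13 did not change.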

How the results depend on the processing

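The 24 higher calls among members were 24 in every fit without 1 library and 22 to 26 under the other alternatives apart from scaling by library totals alone, and the lower calls were 13 to 18 without 1 library and 14 to 22 otherwise. On library totals alone 2 members were called higher and 47 lower, 0 and 66 of the pathway's other genes, and 10 and 21 members on intron reads. Of all 13057 genes called on exon reads with that scaling, 2.70% were higher. There the log2 change turned to -1.35 for BET1, -1.44 for GOSR2, -1.33 for NAPA, -1.06 for NSF, -1.12 for SNAP23, -1.14 for SNAP29, -1.29 for SNAP47, -1.13 for STX18, -0.62 for STX3, -0.85 for STXBP2, -0.59 for STXBP4, -0.27 for STXBP6, -0.91 for SYT13, -0.18 for SYTL2, -1.35 for VTI1A and -1.09 for YKT6. No other alternative turned the direction of a named member. Upper quartile scaling moved the median of all genes to -0.18 and gave 23 higher and 22 lower members, while 36.3% of called genes were higher, against 48.4% with TMM. UNC13A is understated by limma on normalized RPKM plus 1 (log2 change 2.24), since its late pregnancy values lie near 0, and could not be fitted with at least 10 reads in every library. With the pool number as a replicate block over the 12 libraries of pools 1 and 2, 24 members were higher and 14 lower. STX11, SYTL1 and VTI1B lost their calls there, among the named members. Pools of the same number did not deviate together (correlations -0.040 to 0.057). With 2 lactation pools per feed these correlations cannot exclude that the numbers pair the libraries. BET1L, STX11, SYT15, SYTL1 and SYTL3 also lost their calls with limma at either added constant and SYT11 with 1 added, STX19 on uniquely placed reads, and SYT15 with DESeq2, whereas STX12, STX16 and VAMP8 were called lower with limma. Upper quartile scaling and the filter of 10 reads per library each lost the call of BET1L, and in both STX12, STX16, UNC13D and VAMP8 were called lower. Depth limits the 18 untested members, at most 77 exon reads each over the 15 libraries.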
